A study of Mus musculus with 4 samples.

Results

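Hcn2, Hcn3 and Hcn4 are 3 of the 31053 genes in the deposited matrix, found by their symbols, and each symbol occurred once. Nuclear RNA of the superior colliculus, a midbrain centre for visual and other sensory input, had been sequenced from C57BL/6J mice, a wild-type inbred strain, at embryonic day 19 (E19) and postnatal days 4, 8 and 21 (P4, P8, P21). No transgene, mutation or treatment was named for any group, and all 4 groups shared the strain and the tissue. Each stage had 1 library made from pooled animals of unstated number and sex, so a difference between stages is a difference between 2 libraries without a replicate check. The libraries held 2585, 2386, 2504 and 2249 nuclei in order of age, with 19277512 to 31325079 UMIs (unique molecular identifiers, which count captured RNA molecules) each. The authors had placed the 9724 nuclei in 9 classes and 35 subtypes, among them 13 excitatory subtypes (EN1 to EN13) and 12 inhibitory subtypes (IN1 to IN12).

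HCN channels are tetrameric cation channels of the plasma membrane that open when the cell is hyperpolarised and whose opening is shifted by cyclic AMP (cAMP) bound to their intracellular end. The current they carry, Ih, helps to set the resting potential, rhythmic firing and the integration of synaptic input in neurons. Hcn2 encodes a subunit widespread in the brain that responds to cAMP, Hcn3 a subunit with little response to cAMP, and Hcn4 the slowest and strongly cAMP-dependent subunit, best known from the pacemaker cells of the heart.

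On GRCm38 (mm10), GENCODE M21 places Hcn2 (ENSMUSG00000020331) on the plus strand at chr10:79716634-79736108, Hcn3 (ENSMUSG00000028051) on the minus strand at chr3:89146074-89160196 and Hcn4 (ENSMUSG00000032338) on the plus strand at chr9:58823412-58863175. Hcn2 and Hcn4 overlapped no other annotated gene. The 3′ end of Hcn3 overlapped 711 bases of Pklr, the pyruvate kinase gene of liver and red blood cells, on the opposite strand, and Pklr had 1, 7, 5 and 0 UMIs in all neurons from E19 to P21 against 833, 956, 876 and 388 for Hcn3.

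The 3 genes are relatives, and a read lying wholly in a stretch that they share does not tell which gene it came from. The longest identical coding runs of each pair, from the GENCODE M21 transcripts, are printed here because they show how short those stretches are.
Hcn2 and Hcn3: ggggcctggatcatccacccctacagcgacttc
Hcn2 and Hcn4: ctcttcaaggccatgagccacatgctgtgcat
Hcn3 and Hcn4: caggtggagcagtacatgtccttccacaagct
These runs are 33, 32 and 32 bases long, the longest run common to all 3 coding sequences was 17 bases, and no window of 50 bases was shared by any pair of transcripts.

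RefSeq promoters (GRCm38.p6) were given for 2 of the 3 genes, Hcn2 and Hcn4, whose levels in neurons moved in opposite directions with age. The 250 bases before each RefSeq start are shown, both on the plus strand, with matches to the GC box letters GGGCGG on either strand in capitals.
Hcn2, chr10:79716384-79716633: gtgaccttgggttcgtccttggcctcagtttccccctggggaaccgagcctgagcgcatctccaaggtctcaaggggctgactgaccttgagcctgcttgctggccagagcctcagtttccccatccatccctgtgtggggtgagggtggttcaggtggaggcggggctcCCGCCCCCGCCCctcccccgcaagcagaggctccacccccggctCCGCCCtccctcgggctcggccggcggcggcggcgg
Hcn4, chr9:58822699-58822948: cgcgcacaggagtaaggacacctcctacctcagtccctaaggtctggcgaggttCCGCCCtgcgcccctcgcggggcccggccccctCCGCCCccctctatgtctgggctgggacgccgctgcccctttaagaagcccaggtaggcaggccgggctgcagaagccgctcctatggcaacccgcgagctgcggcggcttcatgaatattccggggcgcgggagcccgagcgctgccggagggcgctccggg
The Hcn2 window had 3 matches and the Hcn4 window 2, and 32.7% of 32851 promoter windows of the same length held at least 1. GC content was 70.4% and 71.2%, against a median of 52.4% over all windows. The TATA box letters TATAAA were in neither window on either strand, and in 12.4% of all windows. The SOX motif letters AACAAT, held by 9.42% of windows, and the CCAAT box letters, held by 33.9%, were also in neither. The RefSeq start of Hcn4 lies upstream of the GENCODE start given above.

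The first comparison followed the 3 genes across the stages within each neuron class. Hcn3 and Hcn4 were lower at P21 than at E19 in both classes, and Hcn2 was higher. Levels are given as CPM, UMIs of the gene per 1000000 UMIs of the class in that library, with 95% intervals that cover counting error only.

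In excitatory neurons the levels of Hcn3 were 51.7, 46.4, 35.9 and 13.3 CPM in order of age, with intervals of 47.6 to 56.0 for E19 and 11.5 to 15.3 for P21. In inhibitory neurons they were 39.8, 41.5, 36.4 and 17.2 CPM, with intervals of 34.9 to 45.2 for E19 and 14.8 to 19.8 for P21. The P21 library was the low one in both classes, and its interval overlapped that of no other stage. The E19 level was 3.89-fold the P21 level in excitatory neurons (3.30 to 4.60) and 2.32-fold in inhibitory neurons (1.91 to 2.81). Most of the difference lay between P8 and P21, where the fold was 2.70 in excitatory neurons (2.28 to 3.21) and 2.12 in inhibitory neurons (1.78 to 2.53). Between E19 and P4 the folds were 1.11 (0.997 to 1.25) and 0.958 (0.801 to 1.15), intervals that include 1.

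For Hcn4 the excitatory levels were 23.4, 16.6, 12.7 and 4.79 CPM in the same order, with intervals of 20.7 to 26.4 for E19 and 3.74 to 6.06 for P21. The inhibitory levels were 19.6, 17.5, 10.2 and 6.99 CPM, with intervals of 16.2 to 23.5 and 5.53 to 8.71 at the ends. Each later library was lower than the one before it in both classes, though the step from E19 to P4 in inhibitory neurons lay within counting error, with a fold of 1.12 (0.856 to 1.46). The E19 level was 4.89-fold the P21 level in excitatory neurons (3.74 to 6.45) and 2.81-fold in inhibitory neurons (2.09 to 3.78). In inhibitory neurons the step with the largest fold was P4 to P8, at 1.72 (1.31 to 2.25), whereas in excitatory neurons it was P8 to P21, at 2.64 (1.99 to 3.54).

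Hcn2 took the other direction. In excitatory neurons it had 34.9, 43.7, 39.6 and 45.7 CPM, with intervals of 31.6 to 38.5 for E19 and 42.3 to 49.3 for P21. In inhibitory neurons it had 31.0, 40.7, 38.9 and 49.7 CPM, with intervals of 26.7 to 35.8 and 45.7 to 54.0 at the ends. E19 was the lowest library and P21 the highest in both classes. The P21 level was 1.31-fold the E19 level in excitatory neurons (1.15 to 1.48) and 1.60-fold in inhibitory neurons (1.35 to 1.90). P4 and P8 did not differ beyond counting error in either class, with folds of P8 over P4 of 0.906 (0.805 to 1.02) and 0.956 (0.817 to 1.12).

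**Figure D1:**
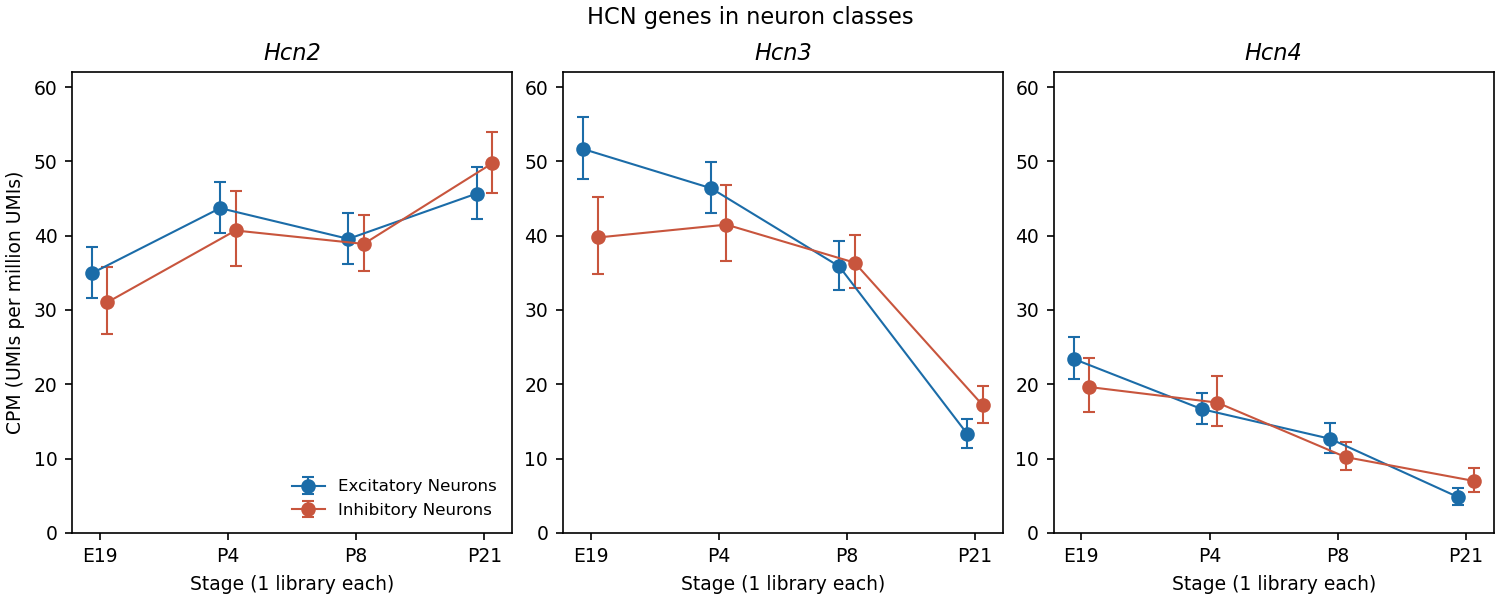
Level of Hcn2, Hcn3 and Hcn4 (CPM, linear axis) in excitatory and inhibitory neurons at E19, P4, P8 and P21, 1 library each; bars are exact Poisson 95% intervals for counting error. Hcn3 drops to 13.3 and 17.2 CPM at P21, Hcn4 is lower in each later library and Hcn2 ends at 45.7 and 49.7 CPM.

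On a log2 scale, after adding 5 CPM to each level (a step that shrinks the ratios of low genes), the ratio of P21 to E19 was -1.63 in excitatory and -1.01 in inhibitory neurons for Hcn3, -1.54 and -1.04 for Hcn4, and 0.34 and 0.60 for Hcn2. A gene was counted as higher or lower when this ratio reached 1 in size, that is 2-fold, and the higher of the 2 levels was 20 CPM or more. By that rule 2 of the 3 HCN genes, Hcn3 and Hcn4, were lower in excitatory neurons, beside 10.7% of 7650 genes. In inhibitory neurons only Hcn3 was lower, beside 11.3% of 7807 genes. Hcn4 was not counted there because its higher level, 19.6 CPM at E19, was under the minimum. None of the 3 was higher, beside 5.35% and 5.83% of genes. Between P8 and P21, Hcn3 was counted as lower in excitatory neurons (-1.16), as were 3.2% of genes there, and not in inhibitory neurons (-0.90), where 3.28% were. No member was higher at that step, as 2.15% and 2.62% of genes were. From E19 to P4 and from P4 to P8 no member was counted in either direction; the shares of genes counted there were small, 0.472% and 0.361% higher and 0.701% and 0.832% lower in excitatory neurons. In inhibitory neurons they were 0.436% and 0.136% higher and 0.582% and 0.382% lower. Between neighbouring stages Hcn4 could be counted only from E19 to P4 in excitatory neurons. At every other step both its levels were under 20 CPM. The median log2 ratio of all genes from E19 to P21 was -0.06 and -0.04, and 77.0% and 86.1% of genes had a lower ratio than Hcn2. In inhibitory neurons Hcn3 and Hcn4 lay close to the 2-fold line. With 20 CPM added, Hcn3 (-0.69) and Hcn4 (-0.55) in inhibitory neurons and Hcn4 in excitatory neurons (-0.81) were not past it, and Hcn3 in excitatory neurons was (-1.11).

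Because nuclei were deeper at later stages, the share of nuclei with a UMI was compared after thinning each nucleus to 2300 UMIs, a depth every nucleus reached. The thinned share with Hcn3 was 12.3% at E19 (10.6 to 14.1) and 3.81% at P21 (2.51 to 5.54) in excitatory neurons, and 10.2% and 3.51% in inhibitory neurons. For Hcn4 it was 5.98% (4.77 to 7.39) and 0.880% (0.324 to 1.91) in excitatory neurons, and 4.59% and 1.35% in inhibitory neurons. The thinned share with Hcn2 was 8.07% (6.67 to 9.66) and 8.50% (6.52 to 10.9) in excitatory neurons, so no difference was detectable there at this depth, and 6.16% (4.67 to 7.94) and 10.3% (8.18 to 12.7) in inhibitory neurons. Thinning also brought the log2 ratio of Hcn2 in excitatory neurons down to 0.16. Unthinned shares with Hcn2 were 25% and 54.8% in excitatory and 17.2% and 49.2% in inhibitory neurons, at median depths of 8052 and 19601 UMIs and of 6075 and 14010 UMIs. For Hcn3 the unthinned shares were 33.7% and 22.1% in excitatory and 23.0% and 21.6% in inhibitory neurons, and for Hcn4 18.6% and 9.24%, and 12.1% and 9.73%. In vascular leptomeningeal cells at P21, a non-neuronal class with a median depth of 6228 UMIs, unthinned shares were 1.44% for Hcn2 and 2.16% for Hcn3, and no nucleus of 139 had Hcn4, which allows a share of up to 2.16%.

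The make-up of the UMIs of the 3 genes in all neurons differed with age. Hcn3 had 46.1% of them at E19 (43.8 to 48.4) and 22% at P21 (20.1 to 24.0). Hcn2 had 32.5%, 40.9%, 45.2% and 69.6% from E19 to P21, the last with an interval of 67.4 to 71.7. Hcn4 had 21.4%, 16.2%, 13.3% and 8.44%. Per kilobase of gene, introns included, Hcn3 led at E19 with 3.37 CPM against 1.73 for Hcn2 and 0.556 for Hcn4, and Hcn2 led at P21 with 2.44 against 1.06 and 0.145. Nuclei with UMIs of 2 of the genes were few after thinning: at E19, Hcn2 and Hcn3 were found together in 10 of 1338 excitatory nuclei, 0.747% (0.359 to 1.37), where the product of their shares was 0.989%. In inhibitory nuclei of that library the pair was found in 1.12% (0.538 to 2.05) against a product of 0.628%, and Hcn2 with Hcn4 was found in 0.897% of excitatory nuclei (0.464 to 1.56) against 0.483%. The products lay within all 3 intervals.

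Other measures moved with stage alongside these genes, and their part in the results was not tested. The 8 genes taken as thalamus markers were Tcf7l2, Lef1, Gbx2, Rnf220, Prkcd, Plekhg1, Lhx2 and Ntng1. Their summed level from E19 to P21 was 2652, 3604, 1924 and 1291 CPM in excitatory neurons. In inhibitory neurons it was 1419, 1738, 1599 and 1042 CPM. Of the 8, 7 to 8 were detected, with Gbx2 at 0 at P21. Whether collicular neurons express these genes themselves was not examined, so the sum does not measure thalamic nuclei. The share of nuclei with a UMI of Xist, the RNA of the inactive X chromosome, was 0.967% at E19 and 68.1% at P21, so the sex make-up of the libraries differed. In nuclei with a Y-linked UMI and no Xist UMI, the log2 ratio of Hcn3 in inhibitory neurons was -1.33. The 3 oligodendrocyte markers Mbp, Mog and Mag summed to 44.6 CPM at E19 and 91.3 at P21 in excitatory neurons, and to 43.9 and 95.3 in inhibitory neurons, all 3 being detected in both, against 12821 CPM in myelinating oligodendrocytes at P21, where Hcn2 is high. The marker genes of the neuron classes matched the labels in every library: the inhibitory markers Gad1, Gad2 and Slc32a1 summed to 680.3 CPM in inhibitory and 34.6 in excitatory neurons at P21, and the excitatory markers Slc17a6 and Slc17a7 to 8.49 and 178.6.

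The second comparison set excitatory against inhibitory neurons of the same library. Hcn3 was 1.30-fold higher in excitatory neurons at E19 (1.12 to 1.52) and 0.774-fold at P21 (0.631 to 0.949), so the order of the classes in CPM was opposite at the 2 ends. After thinning, the share of nuclei with Hcn3 was 12.3% in excitatory and 10.2% in inhibitory neurons at E19. At P21 it was 3.81% and 3.51%. The intervals overlapped at both ends, so these shares do not settle the order of the classes. The mean log2 ratio of Hcn3 between the classes over the 4 libraries was 0.05, and 0.22 after thinning. Hcn4 gave 1.19 at E19 (0.957 to 1.49), then 0.95 and 1.24, and 0.686 at P21 (0.490 to 0.958). For Hcn2 the folds were 1.13, 1.07, 1.02 and 0.918, and all 4 intervals included 1. None of the 3 genes reached 2-fold between the classes in any library, as 1.89%, 1.78%, 3.59% and 3.06% of genes did. Those shares are over genes at 20 CPM or more in either class. Hcn4 reached that level only at E19, and Hcn3 missed it at P21. The fold of P21 over E19 in excitatory neurons, divided by that in inhibitory neurons, was 0.595 for Hcn3 (0.464 to 0.764) and 0.575 for Hcn4 (0.390 to 0.847), and 0.816 for Hcn2 (0.663 to 1.003). The intervals for Hcn3 and Hcn4 excluded 1, but the inhibitory log2 ratio of Hcn3 depended on the setting. It was -1.01 as sequenced, -1.31 after thinning and -1.33 in nuclei with a Y-linked UMI and no Xist UMI. The excitatory ratio was -1.63 as sequenced, and its values under the other settings are not set beside these. Whether the classes lay closer under those settings is therefore not shown. Whether either difference exceeds the spread between animals was not measured.

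Within the subtypes the same directions recurred. Of the 25 neuron subtypes, 23 had at least 20 nuclei in every library, EN7 and EN11 being short of that at the later stages. Hcn2 was higher at P21 than at E19 in 23 of 23, with a median fold of 1.71, and in 6 of them (EN1, EN3, IN1, IN2, IN6 and IN8) the interval excluded 1; 7.04% of 7713 genes were higher in all 23. Hcn3 was lower in 22 of 23, with a median fold of E19 over P21 of 2.67 and 16 intervals that excluded 1. The exception, IN11, had 34.1 CPM at E19 (5 UMIs) and 35.2 at P21 (16 UMIs). Hcn4 was lower in 22 of 23, with a median fold of 3.40 over those with a UMI at both stages and 12 intervals that excluded 1. The exception, IN10, had no UMI in 35 nuclei at E19, which allows up to 14.8 CPM, and 1 UMI at P21. Of all genes, 16.7% were lower in at least 22 of the 23 subtypes. From P8 to P21 Hcn3 was lower in 23 of 23 subtypes, IN11 included, with 15 intervals that excluded 1. The share of all genes lower in 23 of 23 at that step was not computed. All subtypes came from the same libraries, so they are not independent of each other.

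The size of the Hcn3 difference varied among subtypes. In EN3 it was 57.4 CPM at E19 and 21.5 at P21, a fold of 2.67 (1.75 to 4.09). In EN8 it was 68.1 and 8.95 CPM, a fold of 7.61 (3.87 to 16.1). In EN5 it was 27.9, 46.7, 28.1 and 1.78 CPM from E19 to P21, the last from 2 UMIs in 71 nuclei, and the P8 level was 15.8-fold the P21 level (4.09 to 135.1). At P21, IN11, IN1, IN2 and EN3 lay above the level of all neurons (15.0 CPM) beyond counting error and EN9 and EN5 below it.

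**Figure D2:**
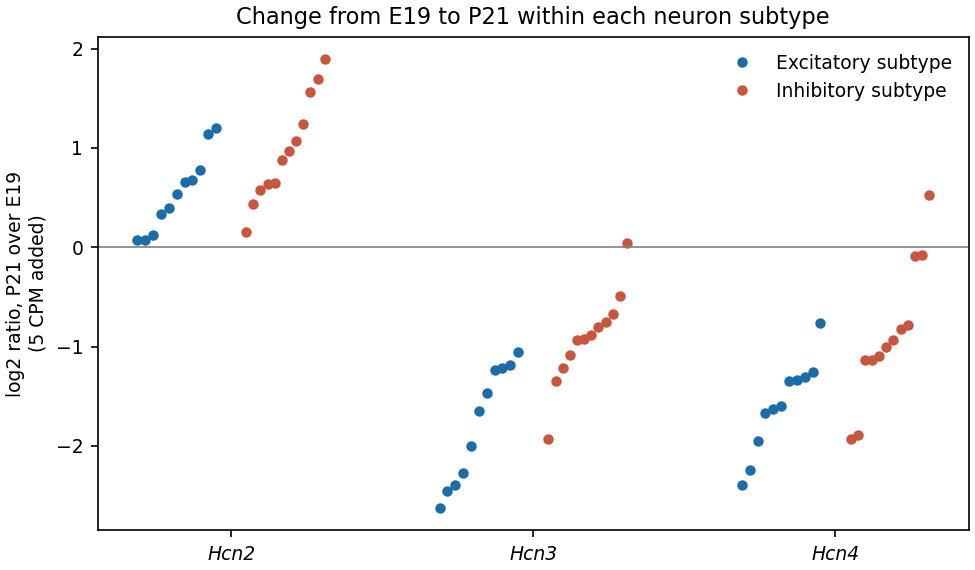
Log2 ratio of P21 to E19 (5 CPM added) for each gene in the 23 neuron subtypes with at least 20 nuclei in every library; each point is 1 subtype, sorted by value within its class. All 23 Hcn2 points lie above 0, and 22 of 23 points lie below 0 for Hcn3 and for Hcn4.

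The third comparison ordered the subtypes by level within each library. Subtypes had been built by the authors from the expression of these same nuclei, so the values are a description, and the subtypes named one by one here were picked with their values in view. The clearest case was Hcn4 in IN12, an inhibitory subtype of 22 to 44 nuclei per library led by the transcription factor gene Maf. Its levels of Hcn4 were 68.2, 39.7, 37.1 and 33.3 CPM in order of age, from 8 UMIs in 23 nuclei, 6 in 22, 14 in 44 and 8 in 22. It was the highest of all ranked subtypes in each of the 4 libraries, ahead of 41.8, 30.1, 16.7 and 12.6 CPM in the next. Against the other inhibitory neurons of the same library, the fold of Hcn4 in IN12 ran from 2.33 at P4 (0.838 to 5.25), the one interval that included 1, to 5.19 at P21 (2.16 to 10.8), and was 3.66 at E19 (1.54 to 7.47) and 4.01 at P8 (2.12 to 7.05). For 4.73% of 7868 genes 1 subtype was the highest in all 4 libraries, and for 0.394% that subtype was IN12. The mean over the libraries was 44.6 CPM (28.5 to 60.7), and the next subtype, EN3, averaged 19.4. The counts are small, and after thinning IN12 ranked 2 at E19, 3 at P4 and 1 at P8 and P21, the last by 19.8 against 19.3 CPM. Without the nucleus with the most Hcn4 UMIs it ranked 3 at P4, with 27.4 CPM against 30.1 in the highest, and 1 in the other libraries. In IN12, Hcn2 was 17.1, 33.1, 31.8 and 66.6 CPM, the last ranking 2 of 23 at P21, and Hcn3 was 25.6, 26.5, 26.5 and 12.5 CPM. None of these differed from the other inhibitory neurons beyond counting error.

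For Hcn2 and Hcn3 the order of subtypes was less settled. Hcn2 was 53.0, 51.7, 56.9 and 55.9 CPM in EN8 from E19 to P21, with the smallest SD over the libraries of any of the 23 (2.45 CPM), and ranked 1, 4, 1 and 4. After thinning, EN8 ranked 2, 8, 15 and 3. Thinning was a single random draw that left 6, 7, 4 and 7 EN8 nuclei with an Hcn2 UMI, so these ranks rest on few counts. The second subtype by mean, IN10, differed from EN8 by less than counting error (53.8 against 54.4 CPM) and was the highest at P21 with 81.7 CPM, 1.69-fold the other inhibitory neurons (1.18 to 2.36). At the low end, Hcn2 in EN12 was 25.8, 22.9, 23.1 and 28.6 CPM, and its fold over the other excitatory neurons was 0.735 (0.237 to 1.73), 0.516 (0.265 to 0.908), 0.566 (0.355 to 0.859) and 0.605 (0.418 to 0.850). Hcn3 had its highest mean in IN11 (47.4 CPM), which ranked 18 at E19, 2 at P4 and 1 at P8 and P21, and 9, 12, 12 and 2 after thinning. Against the other inhibitory neurons Hcn3 in IN11 was 1.81-fold at P8 (1.21 to 2.63) and 2.15-fold at P21 (1.20 to 3.58).

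**Figure D3:**
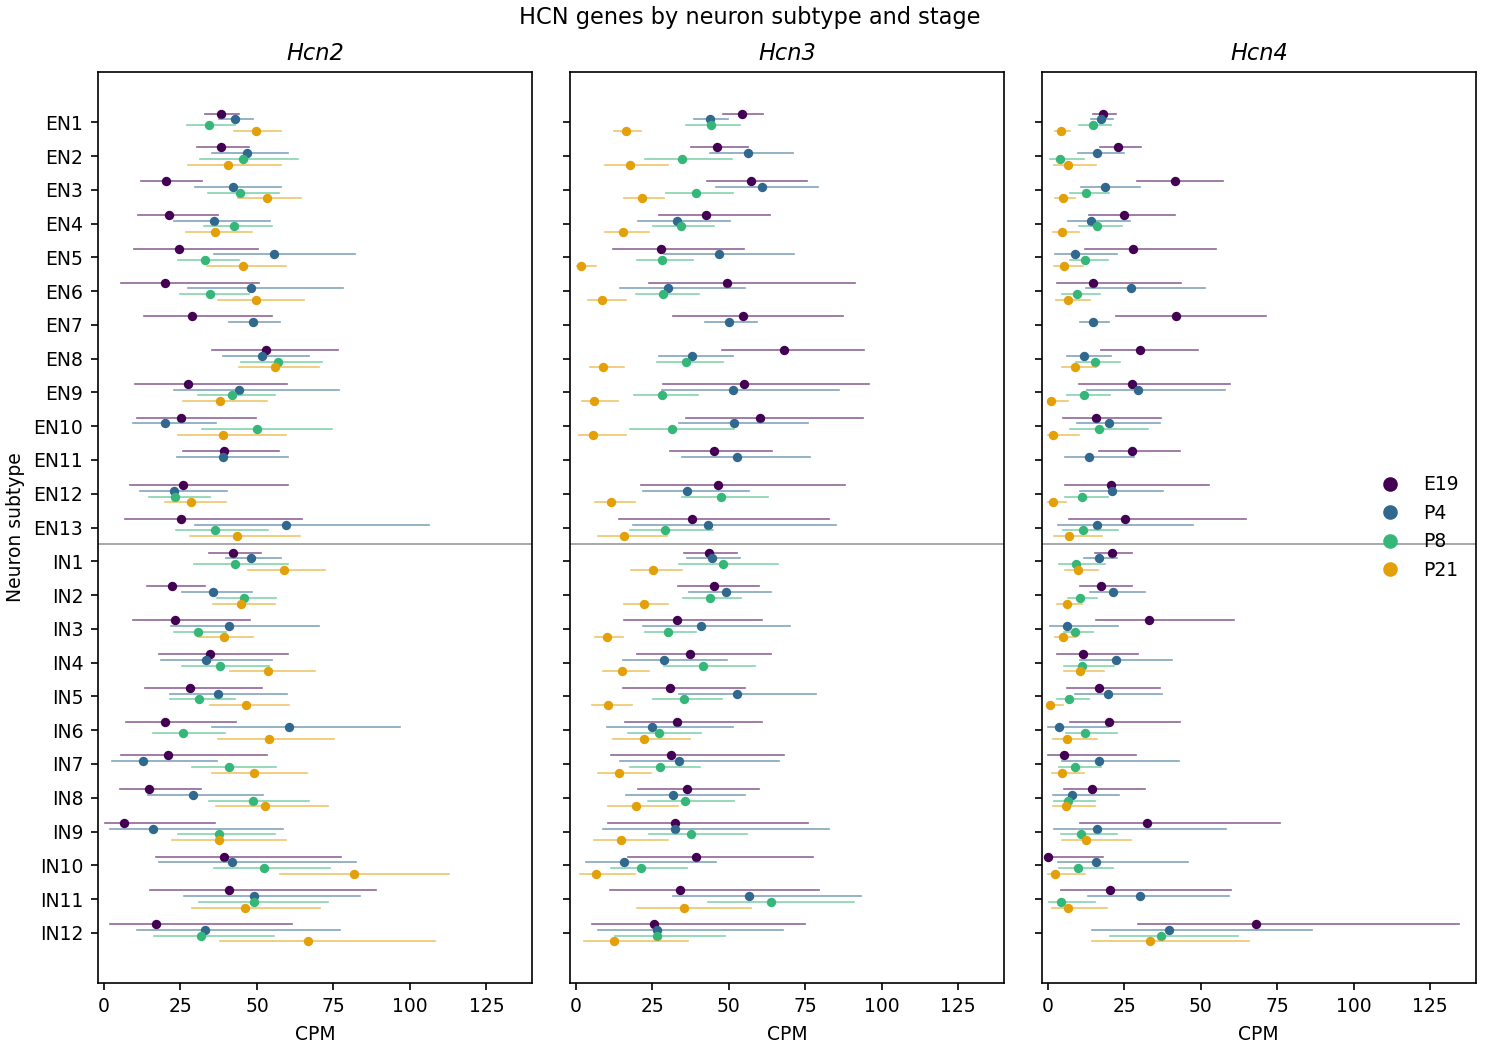
Level (CPM, linear axis) of each gene in the neuron subtypes with at least 20 nuclei in a library, coloured by stage; lines are exact Poisson 95% intervals. P21 points lie to the left for Hcn3, and IN12 lies to the right for Hcn4 with wide intervals from 6 to 14 UMIs.

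For each member the 5 genes with the most similar pattern over subtypes were found by Pearson correlation of log2(CPM + 5) within each library over 23 to 25 subtypes, averaged over the 4 libraries, among 7777 genes. For Hcn3 they were Unc13a, a synaptic vesicle priming factor (mean r 0.61), Nol4l (0.60), Cacna1b, the N-type calcium channel (0.56), Zdbf2 (0.55) and Pnck (0.55), where 1% of genes exceeded 0.42. For Hcn2 they were Cyth3 (0.49), Tmem25 (0.49), Dclk2 (0.47), Pi4ka (0.47) and Dnah7b (0.47), with 1% of genes above 0.36. For Hcn4 they were 9530026P05Rik (0.48), Ythdc1 (0.47), Arhgap20 (0.47), Ccdc88c (0.46) and Galntl6 (0.45), with 1% above 0.32; 9530026P05Rik and Ccdc88c are also among the leading genes of IN12. Subtypes of 1 library share its depth and pool, the correlations are modest in sparse counts, and they are given as a description.

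The fourth comparison took the genes outside neurons. There Hcn2 was high in 1 subtype, myelinating oligodendrocytes at P21, while Hcn3 and Hcn4 were nearly absent from it. The subtype, which was picked with its values in view, held 187 nuclei at P21, 1 at P8 and none before, so that subtype and library cannot be told apart. Its label fitted its markers: Mbp was 8825, Mog 2200 and Mag 1797 CPM, and the neuron markers Snap25, Rbfox3 and Syt1 summed to 242.5 CPM against 2843 in excitatory and 3542 in inhibitory neurons. In committed oligodendrocytes at P21, Mbp, Mog and Mag were 7012, 498.2 and 1925 CPM, so Mag was not lower there.

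Hcn2 stood at 203.5 CPM there (181.8 to 227.1), from 319 UMIs. Of the 187 nuclei, 71 had no Hcn2 UMI, 41 had 1, 25 had 2 and 50 had 3 or more, the highest having 10, so the signal was spread over many nuclei, and without that nucleus it was 198.0 CPM. This was 4.29-fold the level of all neurons of the library (3.78 to 4.86), and every neuron subtype was lower, IN10 coming nearest at 2.49-fold (1.77 to 3.60). In the same comparison 17.1% of 7719 genes were 2-fold or more higher in these nuclei than in all neurons and 25.5% were lower. After thinning, 35.3% of these nuclei had an Hcn2 UMI (28.5 to 42.6), against 9.42% of all neurons (7.96 to 11.1).

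Along the lineage of the P21 library, oligodendrocyte precursors (OPC) had 40.1 CPM of Hcn2 (12 UMIs, 20.7 to 70.0) and committed oligodendrocytes 24.7 CPM (12 UMIs, 12.8 to 43.1). The myelinating level was 5.08-fold (2.87 to 9.93) and 8.24-fold (4.65 to 16.1) those levels. Of the 12 UMIs in committed oligodendrocytes 6 came from 1 nucleus, and without it the level was 12.7 CPM. Committed oligodendrocytes already carried 73.6% of the summed level of the 3 oligodendrocyte markers found in myelinating nuclei. In the earlier libraries Hcn2 was 10.5 CPM at E19, 35.7 at P4 and 9.76 at P8 in precursors, from 2, 6 and 5 UMIs.

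Hcn3 and Hcn4 had 1 UMI each in the 187 myelinating nuclei, 0.638 CPM (0.0161 to 3.56). The level of Hcn3 in all neurons of that library, 15.0 CPM, was 23.5-fold higher, with a counting interval of 4.19 to 929.4. Hcn3 was seen in precursors at 16.7 CPM (5 UMIs) and in committed oligodendrocytes at 4.12 CPM (2 UMIs), and Hcn4 had no UMI in either, which allows up to 10.0 and 6.18 CPM.

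**Figure D4:**
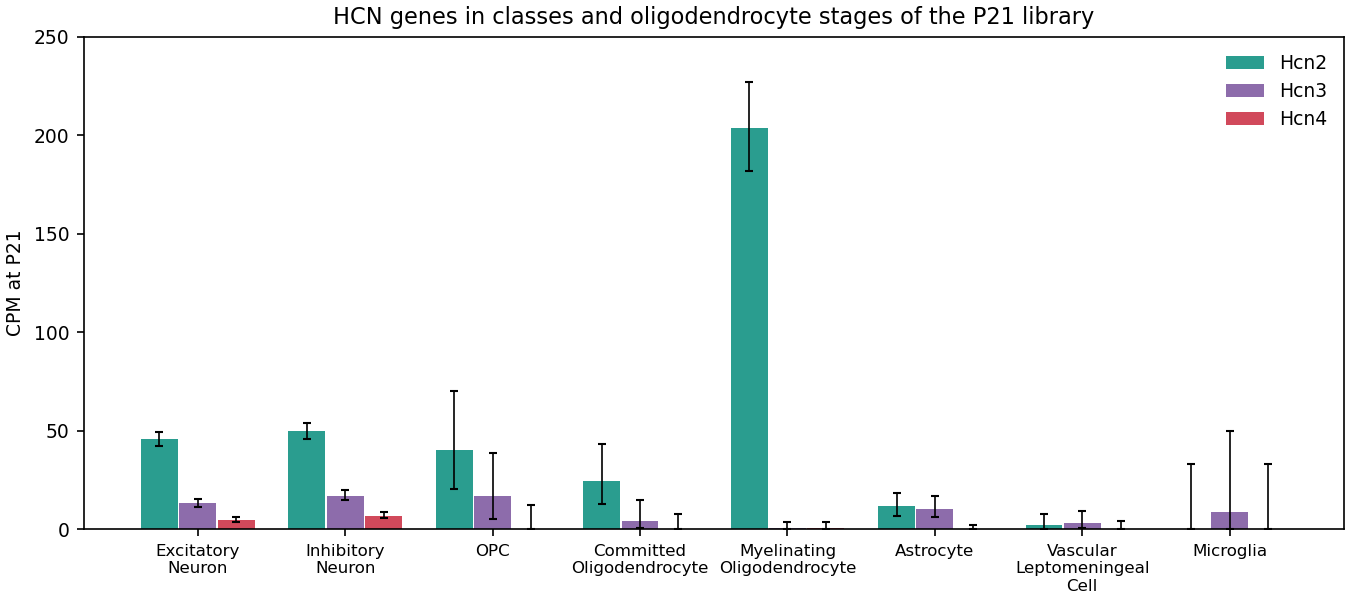
Level (CPM, bars from 0) of Hcn2, Hcn3 and Hcn4 in neuron classes, oligodendrocyte stages, astrocytes, vascular leptomeningeal cells and microglia of the P21 library; lines are exact Poisson 95% intervals. Myelinating oligodendrocytes stand at 203.5 CPM for Hcn2, above both neuron classes, with 0.638 CPM for Hcn3 and for Hcn4.

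Astrocytes held low levels of the 3 genes. Hcn2 was 9.72, 11.9, 4.84 and 11.7 CPM there from E19 to P21 and Hcn3 16.2, 10.9, 11.3 and 10.5 CPM, each from 6 to 19 UMIs, with no step beyond counting error. Hcn4 had 6, 5 and 5 UMIs at E19, P4 and P8 and none in 287 astrocytes at P21, which allows up to 1.85 CPM. In vascular leptomeningeal cells Hcn2 was 18.2 CPM at E19 (4 UMIs) and 2.18 at P21 (2 UMIs). Endothelial cells, 12 to 22 nuclei per library, had 36, 39.3, 20.6 and 27.1 CPM of Hcn2 from 2 to 9 UMIs, too few to order against neurons. Microglia had 1 Hcn2 UMI at P8 and none in the other 3 libraries, where 33 nuclei at P21 allow up to 27.0 CPM.

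The fifth comparison covered genes that act on HCN channels or share their ligand, from E19 to P21. Of 13 partner genes 7 reached 20 CPM in neurons, and in each class 1 was 2-fold higher, Pex5l, and 1 lower, Flna, beside 5.35% of genes higher and 10.7% lower in excitatory and 5.83% and 11.3% in inhibitory neurons. The medians of the 7 log2 ratios were -0.23 in excitatory and -0.27 in inhibitory neurons. Pex5l encodes TRIP8b, the auxiliary subunit that controls the trafficking and cAMP response of HCN channels. It stood at 211.2, 266.0, 469.6 and 884.9 CPM in excitatory neurons, a fold of 4.19 (4.01 to 4.38), and at 78.7, 132.0, 136.3 and 249.7 CPM in inhibitory neurons, 3.17-fold (2.88 to 3.51). The difference was thus larger than that of Hcn2 in both classes.

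Pex5l differed between the subtypes named above for their HCN levels. In EN12, where Hcn2 was low, it stood at 3291 CPM at P21, 4.95-fold the other excitatory neurons (4.77 to 5.14). In IN12, where Hcn4 was high, Pex5l was 332.6, 535.6, 490.2 and 991.0 CPM, 3.96-fold to 4.52-fold the other inhibitory neurons. Pex5l is among the leading genes of that subtype, ranked by their ratio to the other inhibitory neurons. In EN8, where Hcn2 was high, it was 64.4 CPM at E19 and 152.9 at P21, 0.160-fold the other excitatory neurons at P21 (0.138 to 0.183). In IN10, the highest subtype for Hcn2 at P21, Pex5l was 1.195-fold the other inhibitory neurons (0.997 to 1.42). IN12, the next highest for Hcn2 there, had 4.24-fold (3.70 to 4.85). Among subtypes named for Hcn3, Pex5l at P21 was 0.625-fold in IN11, 1.23-fold in EN3 and 0.385-fold in EN5. Subtypes with high Hcn2 thus did not share 1 direction of Pex5l. In myelinating oligodendrocytes at P21 Pex5l stood at 1700 CPM (1636 to 1766) and in committed ones at 977.9, against 96.8 in precursors, so that it was already high in the committed stage, where Hcn2 was 24.7 CPM.

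Flna, the actin crosslinker filamin A that binds HCN channels, stood at 81.1, 106.3, 98.3 and 24.4 CPM in excitatory and 72.1, 98.5, 107.6 and 21.3 CPM in inhibitory neurons. The E19 level was 3.32-fold (2.93 to 3.76) and 3.38-fold (2.88 to 3.98) the P21 level, and the difference lay between P8 and P21, the P8 level being above that of E19 in both classes. Nedd4l, a ubiquitin ligase, was 669.3 and 426.8 CPM in excitatory and 643.3 and 361.4 in inhibitory neurons and did not reach 2-fold. The scaffold gene Magi2 (log2 ratios 0.22 and 0.50), Kctd3 (-0.23 and -0.27), which raises the surface expression of HCN3, and the endoplasmic reticulum genes Vapa (-0.17 and -0.27) and Vapb (-0.26 and -0.15) stayed under 2-fold too. Kctd3 was 240.5 CPM in myelinating oligodendrocytes against 41.3 and 46.5 in the neuron classes at P21.

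Of 10 adenylyl cyclase genes, which make cAMP, 8 reached 20 CPM, none was 2-fold lower (10.7% and 11.3% of all genes were) and 1 was higher in each class (5.35% and 5.83%). Adcy2 was higher in excitatory neurons, at 163.3 and 467.1 CPM (log2 ratio 1.49), and had 0.64 in inhibitory neurons. Adcy8 was higher in inhibitory neurons, at 259.0 and 535.6 CPM (1.03), a call lost with 20 CPM added, and had 0.84 in excitatory neurons. The 2 lowest log2 ratios were those of Adcy1 (-0.67) and Adcy5 (-0.33) in excitatory neurons and again Adcy5 (-0.29) and Adcy1 (-0.25) in inhibitory neurons. The list medians were 0.01 and 0.33.

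Of 16 phosphodiesterase genes, which break down cyclic nucleotides, 12 reached 20 CPM and none was 2-fold lower in either class, as 10.7% and 11.3% of all genes were. In excitatory neurons 3 were higher, Pde7b, Pde8b and Pde10a, beside 5.35% of genes, and in inhibitory neurons 4, those and Pde4a, beside 5.83%, with medians of 0.45 and 0.25 for the 12. Pde7b was 65.7 and 228.9 CPM in excitatory and 23.5 and 145.2 CPM in inhibitory neurons, 3.48-fold and 6.18-fold. Pde8b was 3.22-fold and 5.20-fold, and Pde10a 2.43-fold and 4.32-fold, reaching 1100 CPM in inhibitory neurons at P21. The lowest log2 ratios belonged to Pde1c (-0.77) and Pde7a (-0.40) in excitatory and Pde1c (-0.63) and Pde3a (-0.48) in inhibitory neurons.

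None of the 6 cyclic nucleotide-gated channel genes, the closest relatives of the HCN family by their ligand, reached 20 CPM in neurons. All 3 T-type calcium channel genes did, whose channels open near the resting potential where Ih acts. Cacna1h was counted as lower in excitatory neurons by a narrow margin, at 54.4 and 24.6 CPM (log2 ratio -1.005), beside 10.7% of genes, and had -0.69 in inhibitory neurons. Cacna1i was higher in inhibitory neurons, at 35.1 and 87.6 CPM (1.21), beside 5.83% of genes, and had 0.91 in excitatory neurons. Both calls were lost with 20 CPM added. Cacna1g had -0.21 and 0.27, and the list medians were the values of that gene.

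**Figure D5:**
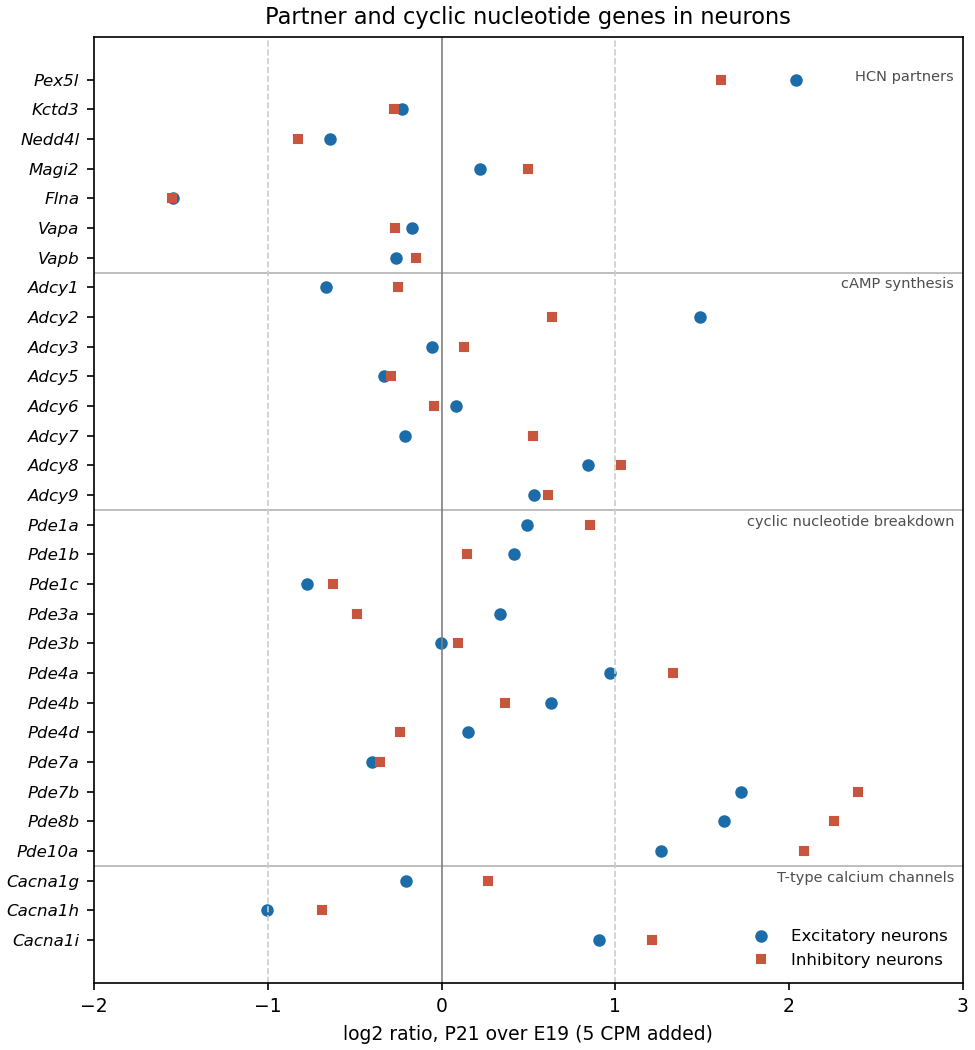
Log2 ratio of P21 to E19 (5 CPM added) of the partner, cAMP synthesis, cyclic nucleotide breakdown and T-type channel genes that reach 20 CPM, in excitatory and inhibitory neurons; dashed lines mark 2-fold. Pex5l lies at 2.04 and 1.61 and Flna at -1.55 in both classes.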

How the data were processed

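The authors deposited counts of UMIs per gene and nucleus, not normalised, with their stage, class and subtype labels. Per the submitters' processing notes, reads were processed with Cell Ranger 3.0.2 and mm10, and per the labels' design text the reference was a pre-mRNA one, so intronic reads were counted. No source used here gave the filters on nuclei, the removal of doublets, the clustering or the strand used in counting. The deposited percent of mitochondrial UMIs had medians of 0.232 to 0.795 per library, and 9 columns of per-nucleus values were not used. Deposited totals matched in all 9724 nuclei, and 9 of 9715 barcodes occurred in more than 1 library.

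UMIs were summed per library and class or subtype and scaled to CPM. Intervals at the 95% level were exact Poisson for levels, exact Clopper-Pearson for shares and exact conditional binomial for folds; those on ratios of folds and on means over libraries were normal approximations. They cover counting error only; a count of 0 was given a limit of 3 counts per library and group. With 1 library per stage no test was made. The call rule was tested on simulated data. Changes were planted there only in genes above the 20 CPM minimum and past 2-fold, so true changes close to either limit were not covered. Of the gene identifiers 31011 (99.9%) were found in GENCODE M21. Thinning drew 2300 UMIs per nucleus in a single random draw and left out none. Named were the 3 members, the 5 genes most like each, every partner at 20 CPM or more and, in each other list, the 2 largest rises and falls per class. The members and lists were chosen with earlier results of these data known. A further gene of the family, left out of the likeness ranking, and 1 oligodendrocyte marker, left out of the marker sums, are not reported here. Promoter motifs, the count of genes lower in at least 22 subtypes and the comparisons of single subtypes were chosen after the data were seen. Alternatives were other pseudocounts, weights, scaling, filters, depth and neuron classes. Python 3.11.15, NumPy 2.4.6, SciPy 1.17.1, pandas 2.3.3 and Matplotlib 3.10.9 were used.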

Additional observations from a re-analysis of the deposited data

How the results depend on the processing

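No direction of a member between E19 and P21 changed under any alternative run. Of the alternative values of the main results, 148 stayed within the counting interval or, for counts, within 1.5 times, and 18 did not; the cause was not tested. With 1 CPM added in place of 5, the log2 ratios of P21 to E19 in excitatory neurons were -1.88 for Hcn3 and -2.08 for Hcn4. With 20 CPM they were -1.11 and -0.81, and in inhibitory neurons -0.69 and -0.55. Thinning gave 0.16 for Hcn2 in excitatory and -1.31 for Hcn3 in inhibitory neurons, and a mean log2 ratio of excitatory to inhibitory neurons of 0.22 for Hcn3. Weighting subtypes alike gave 0.90 for Hcn2 in inhibitory neurons. Nuclei with a Y-linked UMI and no Xist UMI, an alternative chosen after seeing the data, gave -1.33 for Hcn3 in inhibitory neurons. With no minimum CPM, 2 partner genes were lower in each class. With subtypes weighted alike, 2 cAMP synthesis genes were higher in each class. With 20 CPM added, 0 cAMP synthesis genes and 0 T-type channel genes were higher in inhibitory neurons and 0 T-type channel genes were lower in excitatory neurons. The minimum of 50 nuclei gave no value for EN8, IN11 and IN12, which have fewer in at least 1 library. The ranks of IN12 for Hcn4, EN8 for Hcn2 and IN11 for Hcn3 changed after thinning, and that of IN12 at P4 depends on 1 nucleus. Depth and the noise of a single draw cannot be told apart in the thinned ranks. Depth limits the small subtypes most. No paired analysis was possible because each stage has 1 library.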
